A study of Mus musculus with 8 samples.

Results

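The 10 genes described here encode the channels, transporters and signals by which the intestinal epithelium moves chloride, bicarbonate and water. They were chosen by name for their role downstream of cAMP or cGMP, the second messengers raised by prostaglandin E2 (PGE2) and by the guanylin peptides, and not by their values. *Cftr*, *Slc12a2*, *Kcnq1* and *Kcne3* serve chloride secretion, *Slc9a3*, *Slc26a3* and *Slc26a6* serve absorption and bicarbonate exchange, and *Guca2a*, *Guca2b* and *Gucy2c* form the guanylin pathway. All 10 were among the 11554 genes of the crypt table and the 12701 genes of the villus table, of which 11227 were in both.

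RNA from crypts and villi of the mouse small intestine was sequenced in bulk from Ctrl and Gli1-PtgscKO mice, with 2 libraries per genotype and tissue. Gli1-PtgscKO mice carry Gli1-CreERT2 with floxed *Ptgs1* and *Ptgs2*, the genes of the prostaglandin-producing enzymes COX1 and COX2, so that tamoxifen deletes both in Gli1-expressing mesenchymal cells and not in the epithelium itself. The sample labels give Ctrl the genotype WT and mention Gli1-CreERT2; Rosa26-tdTomato mice, whereas the study describes Ctrl mice with both floxed genes and no Cre. All mice had a C57BL/6 background and were sampled 1 month after tamoxifen, and their ages were not given in the sources used here. The study described its replicates as biological. The libraries held 16853017 to 21121714 reads on listed genes in crypts and 13477600 to 15751024 in villi. The 2 Ctrl villus columns held identical values for all 12701 genes and were counted as 1 library, so no test was run in villi. Values are normalized counts, that is reads per gene divided by the DESeq2 size factor of the library, and differences are on the scale of log2(normalized count + 1).

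In the intestine, PGE2 binds its receptor EP4 on epithelial cells and raises cAMP, which activates protein kinase A. The kinase opens CFTR, the apical channel through which chloride and bicarbonate leave the cell, and water follows. The chloride enters from the blood side through NKCC1, the sodium-potassium-chloride cotransporter encoded by *Slc12a2*, and the potassium taken up with it leaves again through the basolateral channel formed by *Kcnq1* and its accessory subunit *Kcne3*. The apical sodium-proton exchanger NHE3, encoded by *Slc9a3*, and the chloride-bicarbonate exchangers DRA and PAT1, encoded by *Slc26a3* and *Slc26a6*, work in the other direction and absorb salt, while the exchangers also release bicarbonate. Guanylin and uroguanylin, encoded by *Guca2a* and *Guca2b*, are released into the lumen and activate guanylate cyclase C, encoded by *Gucy2c*, whose product cGMP also opens CFTR and inhibits NHE3. Secretion is classically assigned to the crypt and absorption to the villus.

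The preparations carried the markers of their labels. Summed over 9 crypt stem and progenitor genes, the crypt libraries held 4732 to 5553 RPM (reads per 1000000 reads on listed genes) and the villus libraries 200.04 to 464, whereas 10 villus enterocyte genes summed to 6412 to 8785 in crypts and 30982 to 37700 in villi. *Ptgs1* overlapped between genotypes in crypts, with 365 and 164 normalized counts in Ctrl and 178 and 199 in Gli1-PtgscKO, and in villi Ctrl with 90.4 lay between the Gli1-PtgscKO libraries with 50.5 and 92.7. *Ptgs2* and *Gli1* were not among the listed genes, so the deletion could not be checked in these libraries. Mesenchymal RNA was present in crypts, where 7 listed markers summed to 458 to 866 RPM, against 107 to 171 in villi.

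The plot of Ctrl levels shows how the 10 genes divided between crypts and villi. Levels between genes are given per transcript length, as reads per kilobase of the longest annotated transcript per 1000000 listed reads (RPKM), since longer transcripts collect more reads. In Ctrl crypts (mean ± SD, n = 2) the order was *Guca2a* with 306 ± 5.36 RPKM, *Guca2b* with 233 ± 42.3, *Slc12a2* with 172 ± 14.9, and *Kcne3* with 117 ± 12.4. Next came *Gucy2c* with 81.9 ± 8.58, *Kcnq1* with 75.0 ± 10.5, *Cftr* with 51.2 ± 1.16, *Slc26a3* with 42.1 ± 1.74, *Slc26a6* with 36.3 ± 10.1 and *Slc9a3* with 13.4 ± 1.51. The 2 libraries did not separate *Gucy2c* from *Kcnq1* or *Slc26a3* from *Slc26a6*, while the other neighbours in this order did not overlap. The place of *Kcnq1* depended on its assumed length, since its median annotated transcript of 294 bases in place of the longest of 3029 gave 773 ± 108 RPKM and put it first.

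**Figure D1:**
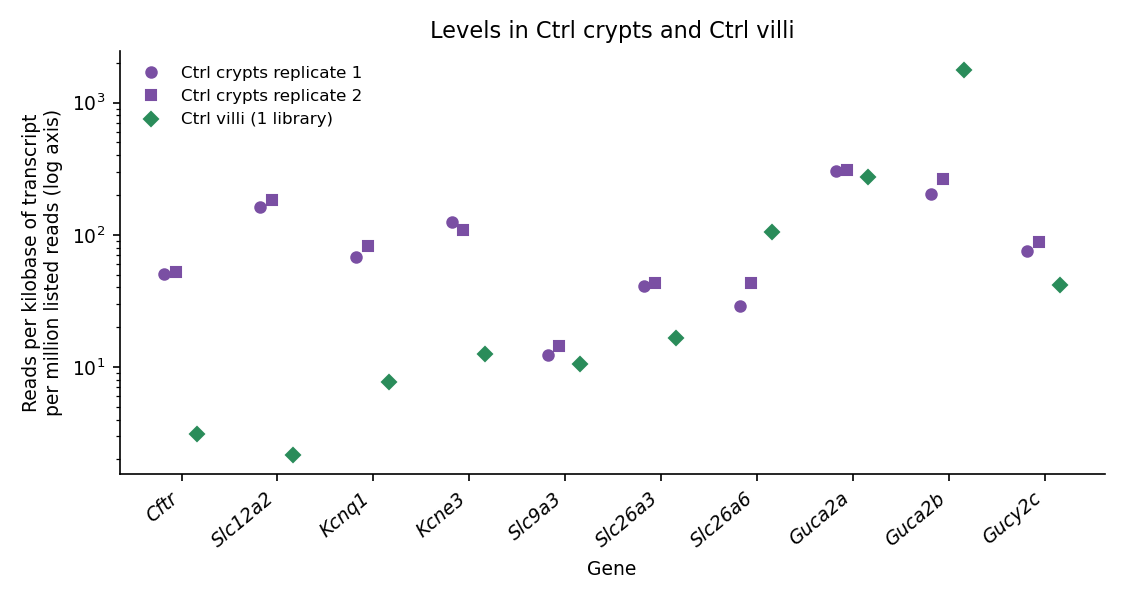
Level of each gene, in reads per kilobase of the longest transcript per 1000000 listed reads on a log axis, in the 2 Ctrl crypt libraries and the 1 Ctrl villus library. *Slc12a2* and *Cftr* stand highest above their villus level, at 172 and 51.2 RPKM in crypts against 2.16 and 3.13 in villi, and *Guca2b* and *Slc26a6* are the 2 genes with the higher level in villi.

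The secretory genes were crypt genes in Ctrl mice. *Slc12a2*, the chloride loader, had 75.1 and 84.9 times its villus RPM in the 2 Ctrl crypt libraries. *Cftr* had 16.1 and 16.6 times its villus level, *Kcnq1* 8.76 and 10.7 times, and *Kcne3* 10.05 and 8.65 times. *Slc26a3*, which is counted with the absorptive genes, had 2.46 and 2.61 times its villus level. These 5 genes lay at least 2-fold above villi in both libraries, and so did 50.9% of the 11227 genes listed in both tables, so that a crypt excess of this size was common. No test was run between tissues, since the tables were normalized separately and villi had 1 Ctrl library.

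*Guca2b* and *Slc26a6* showed the opposite distribution. *Guca2b* reached 1766 RPKM in the Ctrl villus library, 8.68 and 6.71 times its RPM in the 2 crypt libraries. *Slc26a6* reached 104 RPKM, 3.58 and 2.40 times its crypt values. An excess of at least 2-fold in villi over both crypt libraries was less common among all genes, at 7.95%. By RPM *Guca2a* was nearly even between the tissues, with crypt values 1.10 and 1.13 times the villus value, and so was *Slc9a3*, with 1.17 and 1.38 times. On that scale 50.9% of the genes in both tables lay at least 2-fold above villi in both crypt libraries. *Gucy2c*, the shared receptor of both peptides, had 1.80 and 2.09 times its villus level in crypts.

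The ratio of the 2 peptide genes therefore turned over from crypt to villus. Per transcript length, *Guca2b* stood at 0.672 and 0.849 times *Guca2a* in the Ctrl crypt libraries and at 0.648 and 0.790 times in the Gli1-PtgscKO crypt libraries. In villi the same ratio was 6.43 in Ctrl and 6.33 and 4.30 in Gli1-PtgscKO. The ratio of *Slc12a2* to *Cftr* also differed between tissues. It was 3.21 and 3.52 in Ctrl crypts, 4.42 and 3.47 in Gli1-PtgscKO crypts, 0.688 in Ctrl villi and 0.733 and 0.805 in Gli1-PtgscKO villi. *Kcne3* to *Kcnq1*, the subunits of 1 channel, had a ratio of 1.62, 1.62 and 1.59 in the villus libraries and between 1.32 and 2.47 in crypts.

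The promoters of 4 of these genes are shown. *Cftr* and *Slc26a3* carry the secretory and absorptive ends of the pathway, and the peptide genes *Guca2a* and *Guca2b* are neighbours in the genome. *Guca2a* lies at chr4:119637704-119639471 on the plus strand and *Guca2b* at chr4:119656607-119658954 on the minus strand (GRCm38, GENCODE M21), with 17135 bases between them, so that their 3′ ends face each other. *Cftr* lies at chr6:18170687-18322768 on the plus strand. RefSeq windows on GRCm38.p6 were found for 7 of the 10 genes. Each line gives the 250 bases before the RefSeq start on the gene's own strand, from 5′ to 3′, and capitals mark matches to the searched motifs. The windows are chr6:18170437-18170686 for *Cftr*, chr12:31437969-31438218 for *Slc26a3*, chr4:119637482-119637731 for *Guca2a* and chr4:119658946-119659195 for *Guca2b*. The *Slc26a3* window lies inside the GENCODE gene, which spans chr12:31390871-31473917 on the plus strand, so its RefSeq start differs from the GENCODE gene start.
Cftr: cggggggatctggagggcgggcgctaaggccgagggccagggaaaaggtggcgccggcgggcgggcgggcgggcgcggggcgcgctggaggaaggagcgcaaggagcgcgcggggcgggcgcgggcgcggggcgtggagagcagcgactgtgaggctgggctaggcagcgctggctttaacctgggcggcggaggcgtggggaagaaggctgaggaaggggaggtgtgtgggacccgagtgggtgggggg
Slc26a3: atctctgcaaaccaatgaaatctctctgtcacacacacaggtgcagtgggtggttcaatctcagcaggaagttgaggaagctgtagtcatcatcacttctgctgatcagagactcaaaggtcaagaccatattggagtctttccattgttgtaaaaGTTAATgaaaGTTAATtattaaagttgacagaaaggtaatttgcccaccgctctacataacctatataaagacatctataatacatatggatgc
Guca2a: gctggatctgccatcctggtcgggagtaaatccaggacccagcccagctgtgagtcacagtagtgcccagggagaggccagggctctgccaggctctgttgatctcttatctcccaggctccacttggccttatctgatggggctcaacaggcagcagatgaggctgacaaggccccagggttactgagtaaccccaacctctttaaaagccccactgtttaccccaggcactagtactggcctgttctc
Guca2b: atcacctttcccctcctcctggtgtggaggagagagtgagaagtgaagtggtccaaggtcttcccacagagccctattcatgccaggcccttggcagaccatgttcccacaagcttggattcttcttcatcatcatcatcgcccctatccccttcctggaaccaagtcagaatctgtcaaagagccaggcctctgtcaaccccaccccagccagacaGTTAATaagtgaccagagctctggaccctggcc

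Both strands were searched for the cAMP response element TGACGTCA, its shorter core TGACG, the letters GTTAAT found in sites of the hepatocyte factor HNF1, and TTTATG found in sites of the intestinal factor CDX. The shorter core is contained in the full element, so those hits overlap. *Guca2b* held 1 GTTAAT, with its first base 33 bases before the start, and *Slc26a3* held 2, at 94 and 84 bases. The other 5 genes with a window held none of the 4 motifs, and neither cAMP motif was found in any of the 7. Among 32851 mouse promoter windows of the same length, GTTAAT occurred in 6.43%, TTTATG in 10.8%, TGACG in 17.8% and TGACGTCA in 1.55%. These matches describe the letters only.

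In crypts, the comparison of Gli1-PtgscKO with Ctrl asked whether loss of mesenchymal COX was accompanied by a change in the secretory machinery. None of the 10 genes passed the test. limma-trend, fitted over all 11554 genes, called none of them at the threshold of the study, an unadjusted p under 0.01 with an absolute log2 fold change over 1, which 0.182% of all genes passed. None had an unadjusted p under 0.05, against 0.632% of all genes, and edgeR and DESeq2 on the recovered reads also called none and gave none an unadjusted p under 0.05. The log2 fold changes ran from -0.35 to 0.33 with standard errors of 0.25 to 0.47, the smallest p was 0.263 with limma-trend, and all adjusted p-values were 1.00 when rounded. Their median was -0.10, beside -0.01 over all genes. With 2 libraries in each genotype, the smallest p of an exact permutation test is 0.333.

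*Cftr* was the only gene of the 10 whose genotypes did not overlap in crypts. It had 5928 and 6340 normalized counts in Ctrl and 3946 and 5869 in Gli1-PtgscKO. Both Gli1-PtgscKO libraries thus lay below both Ctrl libraries, but replicate 2 by little, at 0.957 times the Ctrl mean against 0.643 times for replicate 1. The log2 fold change was -0.35 ± 0.29 (SE, limma-trend adjusted p = 1.00), and without Gli1-PtgscKO replicate 1 it was -0.06. Of all genes, 11.3% lay lower in both Gli1-PtgscKO libraries and 9.73% higher in both, so 1 of 10 in the lower group is near the background. The exons of *Cftr* overlap those of the antisense gene *Gm15592*, and the strand setting of the counting was not given in the sources used here.

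The other secretory genes overlapped between genotypes. *Slc12a2* was the most highly counted, with 19369 and 22676 normalized counts in Ctrl and 17720 and 20724 in Gli1-PtgscKO, a log2 fold change of -0.13 ± 0.30 (SE). *Kcnq1* had 3760 and 4746 in Ctrl and 3957 and 4057 in Gli1-PtgscKO, so that both Gli1-PtgscKO libraries lay inside the Ctrl range. *Kcne3* had 3060 and 2728 in Ctrl and 4265 and 2749 in Gli1-PtgscKO, with only replicate 1 above Ctrl. *Kcnq1* and *Kcne3* also overlap antisense genes, *Kcnq1ot1* and *Gm34821*, in their exons.

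The absorptive exchangers gave no separation of the genotypes either. *Slc9a3*, the gene of NHE3, had 1162 and 1411 normalized counts in Ctrl and spanned that range in Gli1-PtgscKO with 735 and 1583. *Slc26a3* had 2597 and 2851 in Ctrl and 2104 and 2900 in Gli1-PtgscKO. *Slc26a6* had 2333 and 3605 in Ctrl and 3054 and 3208 in Gli1-PtgscKO, both inside the Ctrl range. For *Slc9a3* the 2 Gli1-PtgscKO libraries thus lay on opposite sides of both Ctrl libraries.

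The guanylin genes showed the widest spread within Gli1-PtgscKO crypts. *Guca2a* had 3298 and 3502 normalized counts in Ctrl but 7152 and 2557 in Gli1-PtgscKO, 2.10 and 0.752 times the Ctrl mean. *Guca2b* followed the same order, with 2602 and 3487 in Ctrl and 5440 and 2370 in Gli1-PtgscKO, 1.79 and 0.778 times the Ctrl mean. In both genes replicate 1 was the highest of the 4 crypt libraries and replicate 2 the lowest. The log2 fold changes were 0.33 ± 0.47 and 0.25 ± 0.42 (SE). Without Gli1-PtgscKO replicate 1 they were -0.41 and -0.35, and without replicate 2 they were 1.07 and 0.85, so that 1 library set the sign. Without replicate 2, *Guca2a* passed the threshold, and *Cftr* and *Slc9a3* were at -0.64 and -0.80. That fit held 1 Gli1-PtgscKO library, the one described next, and many of all genes passed in it. *Gucy2c* moved less, with 5514 and 6624 in Ctrl and 4482 and 5748 in Gli1-PtgscKO.

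**Figure D2:**
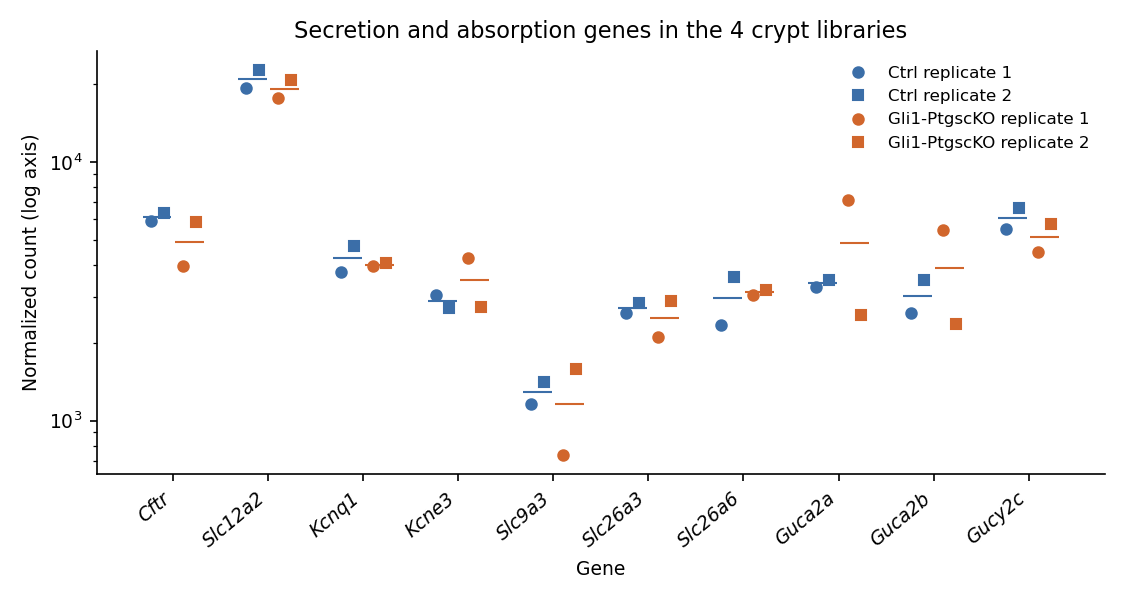
Normalized counts on a log axis of the 10 genes in the 2 Ctrl and 2 Gli1-PtgscKO crypt libraries, with a line at each group mean. The genotypes overlap for 9 of the 10 genes, and Gli1-PtgscKO replicate 1 lies outside the other 3 libraries for 8 genes.

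Gli1-PtgscKO crypt replicate 1 stood apart. It was the highest of the 4 libraries for 3 of the 10 genes, *Kcne3*, *Guca2a* and *Guca2b*, and the lowest for 5, *Cftr*, *Slc12a2*, *Slc9a3*, *Slc26a3* and *Gucy2c*. It lay outside the other 3 libraries for 77.8% of all crypt genes. The direction moved with transcript length. The 3 genes for which it was highest have longest transcripts of 594 (*Guca2a*), 697 (*Guca2b*) and 1323 bases (*Kcne3*), while *Cftr* and *Slc12a2* have 6410 and 6520 bases. Over all genes, the median log2 difference of this library from Ctrl was 1.00 among the 578 shortest and -0.70 among the 578 longest, against -0.16 and 0.09 for replicate 2. At the lengths of *Guca2a* and *Guca2b* the smooth curve over all genes stood at 1.22 and 1.12 in replicate 1, and at that of *Cftr* at -0.49.

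With that curve subtracted from each library, the crypt log2 fold changes lay between -0.22 and 0.18. *Cftr* went from -0.35 to -0.16, *Guca2a* from 0.33 to -0.19, *Guca2b* from 0.25 to -0.22, *Kcne3* from 0.24 to -0.019 and *Slc12a2* from -0.13 to 0.068. The last 4 thus turned sign with the length correction. None of the 10 had an unadjusted p under 0.05 by limma-trend in that fit, against 169 of the 11546 genes tested. *Gucy2c*, with a transcript of 3959 bases, hardly moved, from -0.25 to -0.21.

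**Figure D3:**
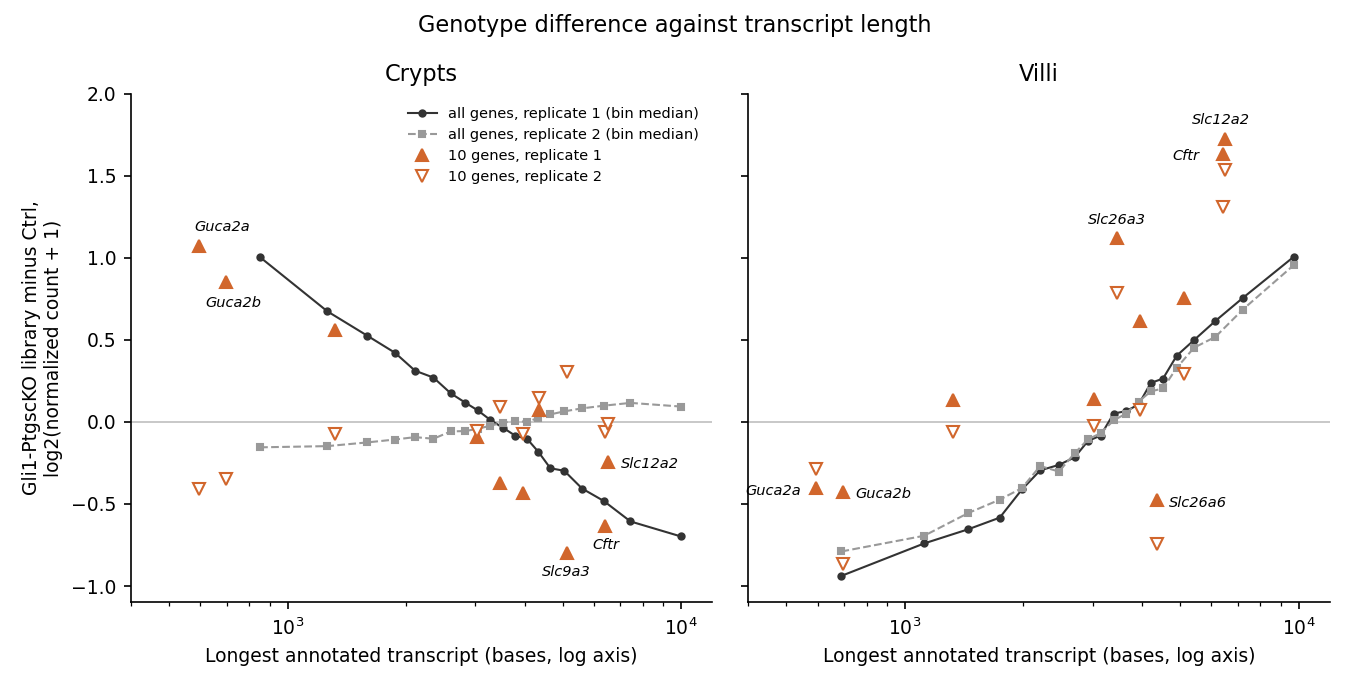
Difference of each Gli1-PtgscKO library from Ctrl, in log2(normalized count + 1), against the longest annotated transcript in bases on a log axis, in crypts (left) and villi (right). Lines join the medians of 20 bins of all genes by length and triangles are the 10 genes. The line falls with length in crypt replicate 1 and rises in both villus libraries. Of the 10 genes, *Cftr*, *Slc12a2* and *Slc26a3* lie furthest above it in villi.

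In villi, *Slc12a2* and *Cftr* showed the largest differences of the 10 genes between the Gli1-PtgscKO libraries and Ctrl, at mean log2 differences of 1.63 and 1.47. With the curve over transcript length subtracted they were at 1.00 and 0.86, beside 0.92 for *Slc26a3*. None of the 10 was then at least 2-fold above Ctrl in both libraries, against 6.8% of all genes. *Slc12a2* had 237 normalized counts in Ctrl and 787 and 691 in Gli1-PtgscKO, 3.31 and 2.91 times Ctrl. *Cftr* had 339 in Ctrl and 1055 and 843 in Gli1-PtgscKO, 3.11 and 2.48 times Ctrl. These are 205, 1029 and 715 reads for *Slc12a2* and 293, 1380 and 873 for *Cftr*. The 2 genes were the only ones of the 10 at least 2-fold above Ctrl in both libraries, as were 11.1% of all villus genes, and none of the 10 lay at least 2-fold below Ctrl in both, against 6.57% of all genes. Even so, their Gli1-PtgscKO villus levels of 10.02 and 8.14 RPKM for *Slc12a2* and 13.7 and 10.1 RPKM for *Cftr* stayed below those of every crypt library. As these are bulk preparations, a change in the share of a cell type and a change in RNA per cell cannot be told apart.

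The 10 genes split by direction in villi. Both Gli1-PtgscKO libraries lay above Ctrl for 5 genes, *Cftr*, *Slc12a2*, *Slc9a3*, *Slc26a3* and *Gucy2c*, and below Ctrl for 3, *Slc26a6*, *Guca2a* and *Guca2b*. Over all villus genes the shares were 43.7% above and 44.2% below, so neither count stood out from the background. The median log2 difference of the 10 was 0.20, beside -0.01 over all genes. With 1 Ctrl library, the spread between Ctrl villi is not known.

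**Figure D4:**
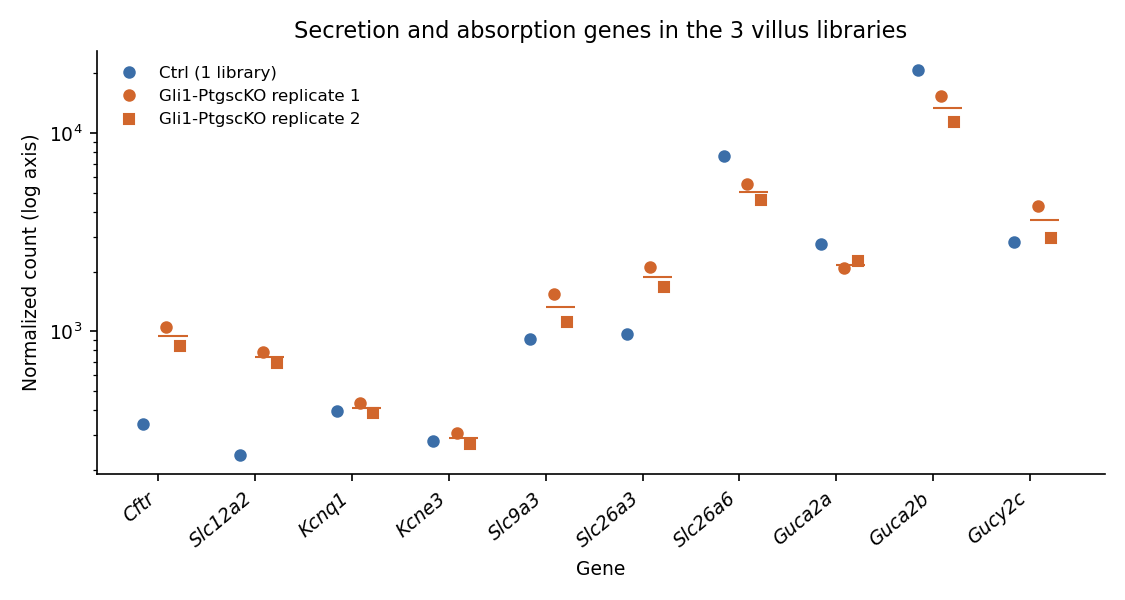
Normalized counts on a log axis of the 10 genes in the Ctrl library and the 2 Gli1-PtgscKO libraries of the villi, with a line at the Gli1-PtgscKO mean. *Cftr* and *Slc12a2* lie at least 2.48 times above Ctrl in both libraries, and *Slc26a6*, *Guca2a* and *Guca2b* lie below Ctrl in both.

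The potassium channel genes that serve the same secretion lay close to Ctrl in villi without the length correction. *Kcnq1* had 395 normalized counts in Ctrl villi and 435 and 387 in Gli1-PtgscKO, and *Kcne3* had 280 in Ctrl and 308 and 269 in Gli1-PtgscKO. In both genes the Gli1-PtgscKO libraries lay on either side of Ctrl, at mean log2 differences of 0.06 and 0.04. The gap between the 2 Gli1-PtgscKO libraries was 0.17 and 0.20, near the median gap of 0.19 over all villus genes. With the curve over transcript length subtracted, both libraries lay above Ctrl, at 0.77 and 0.50 for *Kcne3* and 0.21 and 0.047 for *Kcnq1*.

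Among the absorptive genes the 2 anion exchangers went in opposite directions. *Slc26a3* had 971 normalized counts in Ctrl villi and 2108 and 1670 in Gli1-PtgscKO, a mean log2 difference of 0.95. *Slc26a6* had 7699 in Ctrl and 5528 and 4587 in Gli1-PtgscKO, a mean log2 difference of -0.61. The ratio of *Slc26a6* to *Slc26a3* per transcript length was 6.29 in Ctrl villi and 2.08 and 2.18 in Gli1-PtgscKO villi, whereas in crypts it lay between 0.713 and 1.15 in all 4 libraries. *Slc9a3* had 912 in Ctrl villi and 1541 and 1114 in Gli1-PtgscKO, with the libraries 0.47 apart on the log2 scale around a mean difference of 0.52.

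Both peptide genes were lower in the Gli1-PtgscKO villus libraries. *Guca2b*, the most highly counted of the 10 in villi, had 20796 normalized counts in Ctrl and 15459 and 11416 in Gli1-PtgscKO, 0.743 and 0.549 times Ctrl. *Guca2a* had 2756 in Ctrl and 2080 and 2262 in Gli1-PtgscKO, 0.755 and 0.821 times Ctrl. Their receptor gene *Gucy2c* had 2813 in Ctrl and 4301 and 2952 in Gli1-PtgscKO, and the second value was only 1.05 times Ctrl. The direction of the peptide genes turned with the length correction, to 0.50 for *Guca2a* and 0.15 for *Guca2b*, and that of *Guca2a* also with scaling to RPM, to 0.087.

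**Figure D5:**
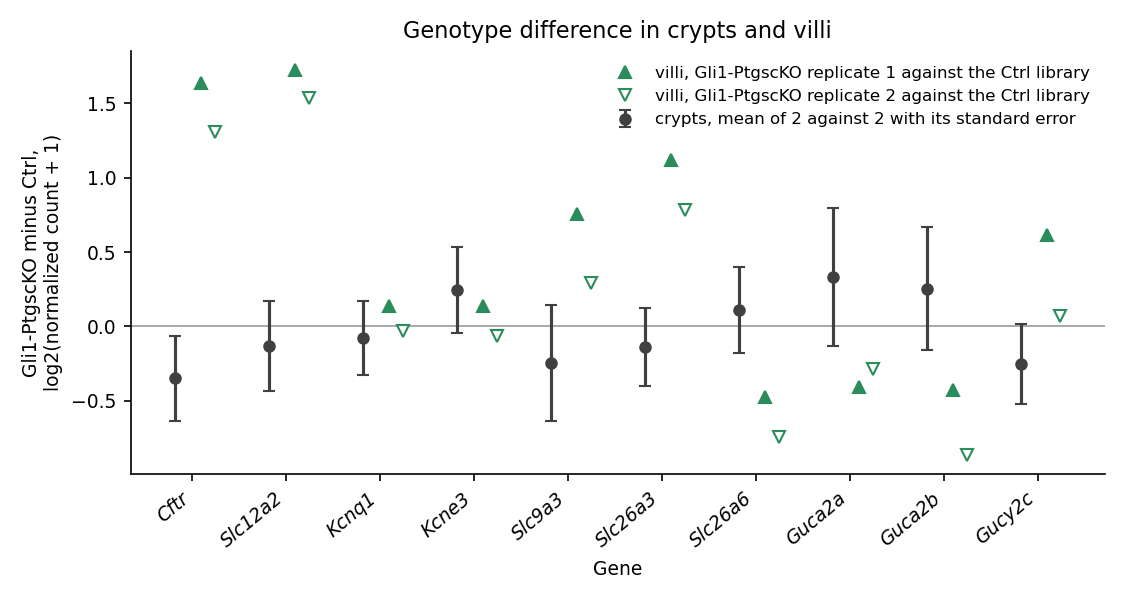
Gli1-PtgscKO minus Ctrl in log2(normalized count + 1) for the 10 genes. Dots with bars give the crypt difference and its standard error (2 against 2 libraries), and triangles give each Gli1-PtgscKO villus library against the 1 Ctrl library. *Cftr* and *Slc12a2* lie at -0.35 and -0.13 in crypts and between 1.31 and 1.72 in villi.

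Transcript length moved with the villus differences as well, in the direction opposite to that of crypt replicate 1. Over all villus genes the median log2 difference from Ctrl was -0.94 and -0.79 in the 2 Gli1-PtgscKO libraries among the 636 shortest and 1.01 and 0.96 among the 635 longest. With the curve over length subtracted, *Slc12a2* still lay 1.07 and 0.94 above Ctrl on the log2 scale, *Cftr* 0.99 and 0.73 and *Slc26a3* 1.08 and 0.75. *Slc26a6* was at -0.72 and -0.96, further below Ctrl than without the correction. These 4 genes kept both libraries on the same side. *Guca2a* turned from -0.35 to 0.50 and *Guca2b* from -0.65 to 0.15, and for *Guca2b*, *Slc9a3* and *Gucy2c* the 2 libraries then lay on either side of Ctrl. *Kcne3*, a short gene, lay 0.77 and 0.50 above Ctrl after correction. The source of these slopes was not tested.

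The scaling of the villus libraries moved all genes of a library together. Scaled to RPM instead of size factors, the median of all villus genes shifted by 0.43, by 0.49 in replicate 1 and 0.37 in replicate 2, and the 10 genes moved with it. *Guca2a* then stood at 0.087 in place of -0.35, and 8 of the 10 lay above Ctrl in both libraries, as did 62.6% of all genes. Relative to that shifted median, *Slc12a2* was at 1.64, *Cftr* at 1.48, *Slc26a3* at 0.96, *Slc26a6* at -0.60, *Guca2b* at -0.63 and *Guca2a* at -0.33, all close to the values above.

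Markers of other cells also differed between the villus libraries. Of all villus genes, 43.7% lay above Ctrl in both Gli1-PtgscKO libraries and 44.2% below, which is the background of the counts that follow. Those counts rest on normalized counts, whereas the sums are in RPM. On the RPM scale the median of all villus genes lay 0.48 and 0.37 above Ctrl (log2) in Gli1-PtgscKO replicates 1 and 2. The 9 crypt stem and progenitor genes summed to 200.04 RPM in Ctrl and to 464 and 362 in Gli1-PtgscKO, with 6 of 9 above Ctrl in both and 2 below. *Mki67*, a proliferation gene, had 142 normalized counts in Ctrl and 609 and 580 in Gli1-PtgscKO, and *Lgr5*, a stem cell receptor, had 13.9 in Ctrl and 64.2 and 30.9 in Gli1-PtgscKO. *Smoc2*, another stem cell gene, had 415 in Ctrl and 333 and 251. The 6 Paneth genes, which also mark crypt material, summed to 454 in Ctrl and 914 and 570, with 4 of 6 above Ctrl in both. The 8 immune genes summed to 1581 in Ctrl and 569 and 500.3, with 1 above Ctrl in both and 5 below. The 5 ileal genes summed to 1263 in Ctrl and 462 and 645, with 2 above and 3 below. The 5 listed gastric genes summed to 4.39 in Ctrl and 30.6 and 12.5, with *Muc5ac* at 0 in Ctrl. Their part in the villus differences of *Cftr* and *Slc12a2* was not tested.

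Other genes of the pathway were read from lists of 71 genes, 58 of them in the crypt table and 59 in the villus table. In crypts both Gli1-PtgscKO libraries lay above Ctrl for 7 and below for 7 of the 58, near the 9.73% and 11.3% of all genes, and 1 gene, *Car2*, passed the threshold, as did 0.182% of all genes. *Car2* encodes carbonic anhydrase II, which supplies bicarbonate inside the cell. It had 888 and 1215 normalized counts in Ctrl and 3037 and 1881 in Gli1-PtgscKO, a log2 fold change of 1.20 ± 0.32 (SE, limma-trend adjusted p = 1.00). The call was lost without Ctrl replicate 1 (0.98), without Ctrl replicate 2 (1.43) and without Gli1-PtgscKO replicate 1 (0.86). In villi *Car2* was at 1169 in Ctrl and 766 and 1078 in Gli1-PtgscKO. Gastric genes differed in the same crypt libraries as *Car2*, with 6 listed markers summing to 1335 and 1678 RPM in Ctrl and 5190 and 3401 in Gli1-PtgscKO, all 6 past the threshold. Their part in the *Car2* difference was not tested.

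The list of secretory transporters held 12 listed genes in crypts, *Car2* among them, of which *Kcnk5*, a potassium channel gene, and *Slc4a2*, the gene of a basolateral anion exchanger, were also above Ctrl in both libraries without passing the test, at log2 fold changes of 0.29 ± 0.26 and 0.23 ± 0.23 (SE). In villi 4 of 12 lay above and 4, *Car2* included, below Ctrl, where 43.7% and 44.2% of all genes did. *Slc4a4* and *Slc4a7*, the genes of sodium-bicarbonate cotransporters that load the cell with bicarbonate, were at 1.09 and 1.09 on the log2 scale. *Car4*, the brush border carbonic anhydrase gene, was at -1.61. The length curve over all genes stood at 0.80 for *Slc4a4*, 0.82 for *Slc4a7* and -0.62 for *Car4*. *Car4* had 2845 normalized counts in Ctrl villi and 1287 and 675 in Gli1-PtgscKO.

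The cAMP pathway list held 18 listed genes in crypts, none above Ctrl in both libraries and 2 below, beside 9.73% and 11.3% of all genes. None passed the threshold or had an unadjusted p under 0.05 by limma-trend, edgeR or DESeq2, and the median log2 fold change was -0.16. *Ptger4*, the gene of EP4, had 593 and 585 normalized counts in Ctrl and 471 and 560 in Gli1-PtgscKO, a log2 fold change of -0.20 ± 0.27 (SE). *Ptger3*, the gene of EP3, a receptor that lowers cAMP, had 156 and 69.3 in Ctrl and 29.4 and 63.7 in Gli1-PtgscKO, a log2 fold change of -1.25 ± 0.66 (SE, limma-trend adjusted p = 1.00). Without Ctrl replicate 1 it was -0.67 and without Ctrl replicate 2 -1.83, and without Gli1-PtgscKO replicates 1 and 2 it was -0.70 and -1.79. In villi 12 of 19 genes lay above Ctrl in both libraries and 4 below, where 43.7% and 44.2% of all genes did, with a median of 0.41, all without the length correction. The adenylyl cyclase genes *Adcy7*, *Adcy9* and *Adcy6*, whose products make cAMP, were at 1.39, 1.27 and 1.24 in villi, and at 0.85, 0.90 and 0.68 with the length curve subtracted. *Ptger4* had 132 in Ctrl villi and 180 and 208 in Gli1-PtgscKO.

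The cGMP pathway list held 4 listed genes in crypts. *Pde5a*, a phosphodiesterase gene whose product breaks down cGMP, had 2904 and 3286 normalized counts in Ctrl and 1912 and 2755 in Gli1-PtgscKO, at a log2 fold change of -0.43 ± 0.27 (SE). *Prkg2*, the gene of the cGMP-dependent kinase that acts on CFTR, had 1162 and 1073 in Ctrl and 932 and 1035 in Gli1-PtgscKO, at -0.19 ± 0.24 (SE). Neither passed the threshold, and no gene of the list had an unadjusted p under 0.05 by limma-trend, edgeR or DESeq2. In villi *Pde5a* was at 0.55 and *Prkg2* at 0.41, or -0.21 and 0.04 with the length curve subtracted, and *Pde9a*, another phosphodiesterase gene, was at -0.40, or -0.07 with the curve subtracted.

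Of the 5 listed aquaporins in crypts, none passed the threshold with limma-trend, edgeR or DESeq2, and *Aqp3* had an unadjusted p under 0.05. *Aqp3*, a basolateral water and glycerol channel gene, had 113 and 155 normalized counts in Ctrl and 306 and 259 in Gli1-PtgscKO, a log2 fold change of 1.08 ± 0.36 (SE, limma-trend adjusted p = 1.00). *Aqp8*, another water channel gene, had 23.4 and 32.4 in Ctrl and 92.3 and 49.2 in Gli1-PtgscKO, at 1.26 ± 0.65 (SE). In villi *Aqp3* straddled Ctrl, *Aqp8* and *Aqp11* lay at -0.66 and -0.21, and *Aqp4* lay at 1.31 with 32.4 normalized counts in Ctrl and 87.2 and 77.3 in Gli1-PtgscKO. With the length curve subtracted, *Aqp3* was at 0.46, *Aqp8* at -0.12, *Aqp11* at -0.73 and *Aqp4* at 0.93.

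The lists of absorptive transporters and of scaffolds and kinases held 7 and 12 listed genes in crypts, and neither had a gene past the threshold or with an unadjusted p under 0.05 by limma-trend, edgeR or DESeq2. In villi *Slc26a2*, the gene of a sulfate transporter of the same family as *Slc26a3*, had 436 normalized counts in Ctrl and 1385 and 1210 in Gli1-PtgscKO, at 1.57, or 0.79 with the length curve subtracted. *Scnn1a*, a subunit gene of the epithelial sodium channel, was at -0.52, and *Slc5a8* at -0.17, or -0.56 and -0.61 with the length curve subtracted. Of the 12 listed scaffold and kinase genes, 6 lay above Ctrl in both villus libraries and 5 below, against 43.7% and 44.2% of all genes. The 5 below encode proteins that anchor transporters at the brush border. *Slc9a3r1*, the gene of NHERF1, had 37679 in Ctrl and 17917 and 18769 in Gli1-PtgscKO, *Slc9a3r2*, the gene of NHERF2, was at -1.25, and *Pdzd3* was at -0.41, the last 2 at -0.93 and -0.11 with the length curve subtracted. *Slc9a3r1* was named after its value was seen. The kinase genes *Wnk1*, *Sgk1* and *Wnk4*, which act on NKCC1, NHE3 and related transporters, were at 1.42, 1.05 and 0.66 in villi, with *Wnk1* at 0.35 once the length curve was subtracted. *Sgk1* stood at 3.39 times Ctrl in replicate 1 but at 1.26 times in replicate 2. In crypts *Slc9a3r2*, *Pdzd3*, *Wnk4* and *Slc9a8* were at 0.53, 0.53, -0.34 and -0.23.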

How the data were processed

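RNA of crypts and villi was sequenced from Ctrl and Gli1-PtgscKO mice. Per the methods and the processing notes, the authors aligned reads to mm10 with STAR and compared gene counts with DESeq2. The counting program, strand setting and annotation were not given in the sources used here, and the kits for RNA and libraries differ between labels and methods. The deposited values are a normalized signal, gene counts divided by the size factor of the library, for crypts and villi separately. All values were whole multiples of 1 step per library (within 0.000001 of a read), which gave back reads. In crypts the step was read from the smallest gap between values, since the lowest values are several reads, so the crypt reads given to edgeR and DESeq2 are inferred. Deposited columns of fold changes and p-values were not used.

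Crypts were compared with limma-trend 3.58.1 (R 4.3.3) on log2(value + 1) over all genes with a mean of at least 1, with Benjamini-Hochberg adjustment. The threshold of the study was used, an unadjusted p under 0.01 with a log2 fold change beyond 1 in size, and beside it an adjusted p under 0.05. edgeR 4.0.16 and DESeq2 1.42.0 on recovered reads were alternatives, with other scalings, filters, pseudocounts, a lowess curve over transcript length (span 0.3), a replicate block and left-out libraries. The limma-trend, edgeR and DESeq2 fits were tested on simulated data. Villi had 1 distinct Ctrl library and no test. Lengths came from GENCODE M21. Named were the 10 genes, *Ptgs1*, *Ptgs2*, *Gli1* and *Ptger4*, and from each pathway list up to 3 genes with the largest crypt difference without overlap and up to 3 with the largest villus difference on 1 side of Ctrl. Single marker genes and *Slc9a3r1* were named after their values were seen. The genes and lists were chosen with earlier results of these data known.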

Additional observations from a re-analysis of the deposited data

Results flagged for a closer look

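*Cftr* lay on opposite sides of Ctrl in the 2 tissues, with both Gli1-PtgscKO libraries below Ctrl in crypts (-0.35 on the log2 scale) and both above in villi (1.47). The genotypes did not overlap in crypts for 13 of the 36 named genes that both tables list, and for 11 of the 13 the villus libraries lay in the opposite direction. Most of the named genes were chosen for such separation, so these counts carry no weight. Among all 11227 genes in both tables, 20.9% were separated in crypts, and 62% of those lay the opposite way in villi. Whether the tissues differ was not tested for any gene, since villi had 1 Ctrl library.

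Among the genes lower in crypts and above Ctrl in villi were *Ptger4*, the gene of EP4, at -0.20 and 0.55, *Pde5a* at -0.43 and 0.55, and *Prkg2* at -0.19 and 0.41. *Slc9a8*, the gene of another sodium-proton exchanger, was at -0.23 and 0.14, and *Wnk4* at -0.34 and 0.66. The reverse order was seen for the carbonic anhydrase gene *Car2* at 1.20 in crypts and -0.36 in villi, and for *Slc4a2* at 0.23 and -0.47. It was also seen for *Pdzd3* at 0.53 and -0.41, *Slc9a3r2* at 0.53 and -1.25, and *Aqp8* at 1.26 and -0.66. Of the 11 genes, *Car2* alone passed the threshold in crypts by limma-trend.

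The slope over transcript length had opposite signs in Gli1-PtgscKO crypt replicate 1 and in both Gli1-PtgscKO villus libraries. With the length curve subtracted in both tissues, 8 of the 11 genes still had mean differences of opposite sign. *Pde5a* (-0.19 in crypts and -0.21 in villi), *Slc9a8* (-0.12 and -0.20) and *Car2* (1.03 and 0.076) then had the same sign. *Cftr* stood at -0.16 and 0.86, *Ptger4* at -0.17 and 0.44, *Wnk4* at -0.29 and 0.49, *Slc4a2* at 0.30 and -0.67 and *Slc9a3r2* at 0.41 and -0.93. *Prkg2* (-0.070 and 0.041), *Pdzd3* (0.43 and -0.11) and *Aqp8* (1.04 and -0.12) came close to 0 in villi, and the 2 villus libraries of *Prkg2* lay on either side of Ctrl.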

How the results depend on the processing

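No crypt alternative that kept all 4 libraries called any of the 10 genes. Leaving out 1 library gave 0 to 1 of them past the threshold and 0 to 4 with an adjusted p under 0.05, and for the other pathway genes 0 to 2 and 0 to 9, all highest without Gli1-PtgscKO crypt replicate 2. The crypt log2 fold change then ranged from -0.41 to 1.07 for *Guca2a*, -0.35 to 0.85 for *Guca2b*, -0.072 to 0.56 for *Kcne3*, -0.24 to 0.092 for *Kcnq1*, -0.80 to 0.31 for *Slc9a3*, -0.37 to 0.092 for *Slc26a3* and -0.20 to 0.42 for *Slc26a6*. It ranged from -0.40 to 0.35 for *Adcy6*, -1.16 to 1.20 for *Adcy7*, -1.90 to 0.58 for *Adcy9*, -0.16 to 0.31 for *Aqp11*, -0.89 to 0.000604 for *Aqp4*, -1.01 to 0.41 for *Car4*, -0.36 to 0.053 for *Pde9a*, -0.26 to 0.086 for *Scnn1a*, -0.52 to 0.30 for *Slc26a2*, -0.90 to 0.25 for *Slc4a7*, -0.67 to 0.16 for *Slc5a8* and -0.99 to 0.092 for *Wnk1*. The length correction, with and without the replicate block, turned *Slc12a2* to 0.068, *Kcne3* to -0.019, *Guca2a* to -0.19, *Guca2b* to -0.22, *Adcy6* to 0.16 and *Slc26a2* to 0.13. *Adcy6* also turned with DESeq2 (0.031) and edgeR (0.032), and *Adcy7* with RPM in place of size factors (-0.049). The cause of these turns was not tested. In villi, RPM put 8 of the 10 genes above Ctrl and 0 below (62.6% and 24.3% of all genes), with *Guca2a* at 0.087. The length correction put 6 above and left 1 below (41% and 43.7% of all genes), with *Guca2a* at 0.50 and *Guca2b* at 0.15. Leaving out 1 villus library gave 5 to 7 above and 3 to 5 below, with 5 of each without Gli1-PtgscKO villus replicate 1. With 1 library against 1, a gene falls on either side unless the values are equal, so these counts carry no weight. The median of the 10 genes in Ctrl crypts was 131 RPKM with the median transcript length.

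Over all crypt genes, the difference between the 2 Ctrl libraries correlated at 0.247 with that between the 2 Gli1-PtgscKO libraries. This value cannot settle whether same-numbered libraries were paired. The main fit used genotype alone by plan. With the replicate block, 0 of the 10 genes and 1 other pathway gene, *Car2*, reached an adjusted p under 0.05 with limma-trend. With the block and the length correction together this call was lost, and 27 genes were called higher and 6 lower, 0 of them with an adjusted p under 0.05. Among all crypt genes the block called 63 higher and 15 lower (34 with an adjusted p under 0.05), DESeq2 60 and 5 (11), edgeR 20 and 3 (0) and the fit without it 20 and 1 (0). The lowest count of any of the 10 genes was 701 reads in crypts and 205 in villi.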

Other observations

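*Igkc* and *Jchain*, immunoglobulin genes of plasma cells, had 5063 and 1211 normalized counts in Ctrl villi, against 537 and 935 for *Igkc* and 220 and 364 for *Jchain* in Gli1-PtgscKO. *Fabp6*, an ileal bile acid binding protein gene, had 19965 in Ctrl and 4645 and 7501 in Gli1-PtgscKO. *Ptprc*, the gene of a marker of all white blood cells, went the other way, with 200.4 in Ctrl and 608 and 722 in Gli1-PtgscKO. These genes were chosen after their values were seen, and with 1 Ctrl library no test was run.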
